A study of Homo sapiens with 6 samples.

Results

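Transforming growth factor beta (TGF-beta) signalling was examined gene by gene in AGS cells, an established epithelial line from a human gastric adenocarcinoma, through 10 genes: the ligands TGFB1, TGFB2 and TGFB3, the receptors TGFBR1 and TGFBR2, the signal transducers SMAD2, SMAD3 and SMAD4, the inhibitory SMAD7 and the corepressor TGIF1. The members were matched by gene symbol to the deposited table of 11187 protein-coding genes, which lists 9 of the 10. TGFB2 is not listed in the table used here and has no value. All 9 passed the filter on low values, a mean of at least 1 FPKM over the 6 libraries. FPKM scales fragments to transcript length and to the fragments mapped in the library. Levels can thus be set side by side between genes only as far as the transcript lengths used are right. Those lengths are not stated in the sources used here.

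The study compared 3 libraries of AGS cells transiently transfected with miR-3648 mimics, short RNAs that imitate the mature microRNA, with 3 libraries of AGS cells transfected with a negative control, called NC in the labels. All cells were grown in DMEM with fetal bovine serum, and the labels give neither the time after transfection nor the sequence of the control. The labels do not state whether replicates are separate cultures, and the p-values reflect only how far these libraries vary, possibly for technical reasons. The series title names FRAT1, FRAT2 and c-Myc in the invasion of gastric cancer cells and does not name the TGF-beta pathway.

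TGF-beta ligands are secreted in a latent form and, once released, bring a type II receptor (TGFBR2) and a type I receptor (TGFBR1) together at the cell surface. The type I receptor phosphorylates SMAD2 and SMAD3, which join SMAD4 and act on transcription in the nucleus, while SMAD7 blocks the receptor and TGIF1 represses SMAD-bound genes. In epithelia the pathway is known for restraining proliferation and, in carcinoma cells, for promoting mesenchymal and invasive traits.

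The mature microRNA is shown with its seed, bases 2 to 8, in capitals, since these bases define the sites that were searched in the members. The sequence is that of RefSeq (chr21:8987026-8987046, plus strand, GRCh38.p14).
hsa-miR-3648: aGCCGCGGggaucgccgaggg
A site pairing with bases 2 to 8 reads CCGCGGC and one pairing with bases 2 to 7 opposite an A reads CGCGGCA. Only the transcript strand was searched, in the protein-coding GENCODE 29 transcript with the longest 3' UTR of each gene, and the words overlap in CGCGGC. None of the 9 members had either word in its 3' UTR, against 2.12% of 10179 tested genes that did. In the coding sequence, TGFB1, TGFBR2 and SMAD7 had 1 site each, and 12.8% of the tested genes had at least 1. In the 5' UTR, SMAD3 had 2 sites and TGFBR1 and SMAD7 had 1 each, and 14.7% of 9636 tested genes with an annotated 5' UTR had at least 1. The coding sites are shown within 30 bases of the transcript, with the letters of the site in capitals, and start at base 147 of the TGFB1, base 1088 of the TGFBR2 and base 351 of the SMAD7 coding sequence.
TGFB1: atcgaggccatCCGCGGCcagatcctgtcc
TGFBR2: ggagtacctgaCGCGGCAtgtcatcagctg
SMAD7: gccgtggagtcCCGCGGCgggacgcgcacc
A match of letters is a description and not a measured site. TGFB3, which is described next, had no such word in its 3' UTR, its 5' UTR or its coding sequence.

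TGFB3, which encodes the less abundant of the listed ligands, fell in mimic libraries. It was measured at 0.834, 0.931 and 0.851 FPKM in mimic replicates 1, 2 and 3, against 1.99, 1.98 and 2.23 FPKM in NC replicates 1, 2 and 3. Every mimic library lay below every NC library, and the gap between the groups was wider than the range within either. The means were 0.872 ± 0.0518 FPKM in mimic and 2.06 ± 0.143 FPKM in NC libraries (SD, n = 3 each), so that the level fell by 57.7%. On the log2(FPKM + 1) scale, which understates changes of genes this low, the log2 fold change was -0.71 (SE 0.08, 95% interval -0.90 to -0.52). The limma test over all 10286 tested genes gave an adjusted p of 0.026. TGFB3 was the only 1 of the 9 members to pass, while 0.408% of all tested genes passed, 0.175% as lower and 0.233% as higher in mimic libraries. It met the filter of at least 1 FPKM only through its NC libraries, as its mimic mean was below 1 FPKM. Without the filter its limma adjusted p was 0.027, where 39 of 11187 genes were called. In bulk libraries a lower level per cell cannot be told apart from fewer cells that express the gene.

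The TGFB3 call was lost in most fits with 1 library left out. With 1 library left out at a time the log2 fold change stayed between -0.73 and -0.67, while the limma adjusted p was 0.022 without NC replicate 3 and lay between 0.083 and 0.16 without each of the other 5 libraries. Of all tested genes 14.8% were called without NC replicate 3. TGFB3 (ENSG00000119699) lies on the minus strand of chromosome 14, from 76424442 to 76449334 on GRCh37, within IFT43, an intraflagellar transport gene on the plus strand that spans 76368479 to 76550928. The strand setting of the authors' quantification is not given in the sources used here, so reads of the pair may not have been told apart. IFT43 was at 3.49, 3.39 and 3.09 FPKM in mimic libraries and at 2.83, 3.43 and 2.85 FPKM in NC libraries. The groups overlapped for IFT43 (log2 fold change 0.10, 95% interval -0.12 to 0.32, limma adjusted p = 0.62), and the part of shared reads in the TGFB3 values was not tested. For the sum of both genes, which is mostly IFT43, the log2 fold change was -0.23 (limma adjusted p = 0.29).

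TGFB1, the more abundant of the listed ligands, did not pass the test. It was measured at 17.6, 18.0 and 16.4 FPKM in mimic libraries and at 20.3, 19.9 and 15.7 FPKM in NC libraries. The groups overlapped through NC replicate 3, the lowest of the 6 values. The log2 fold change was -0.09 (95% interval -0.35 to 0.17, limma adjusted p = 0.70). Without NC replicate 3 it was -0.20 (limma adjusted p = 0.078), which did not pass either, where 14.8% of all tested genes were called. With all 6 libraries and a correction for transcript GC content it was 0.05, the opposite sign. TGFB1 (ENSG00000105329; chromosome 19, 41807492 to 41859816, minus strand) overlaps HNRNPUL1 and CCDC97 on the other strand, so its values have the same limit of strand.

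TGFB3 was a minor share of the listed ligand transcripts, and its share was lower with the mimics. It made up 4.52%, 4.91% and 4.94% of the summed TGFB1 and TGFB3 FPKM in mimic libraries, against 8.93%, 9.03% and 12.4% in NC libraries. The ratio of TGFB3 to TGFB1 averaged 0.0503 ± 0.00262 in mimic and 0.113 ± 0.0250 in NC libraries (SD, n = 3 each), and the groups did not overlap. An exact two-sided permutation test of the log2 ratio gave p = 0.1, the smallest value that 3 libraries against 3 can reach, and 0.4 after adjustment over the 4 ratios of members compared.

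**Figure D1:**
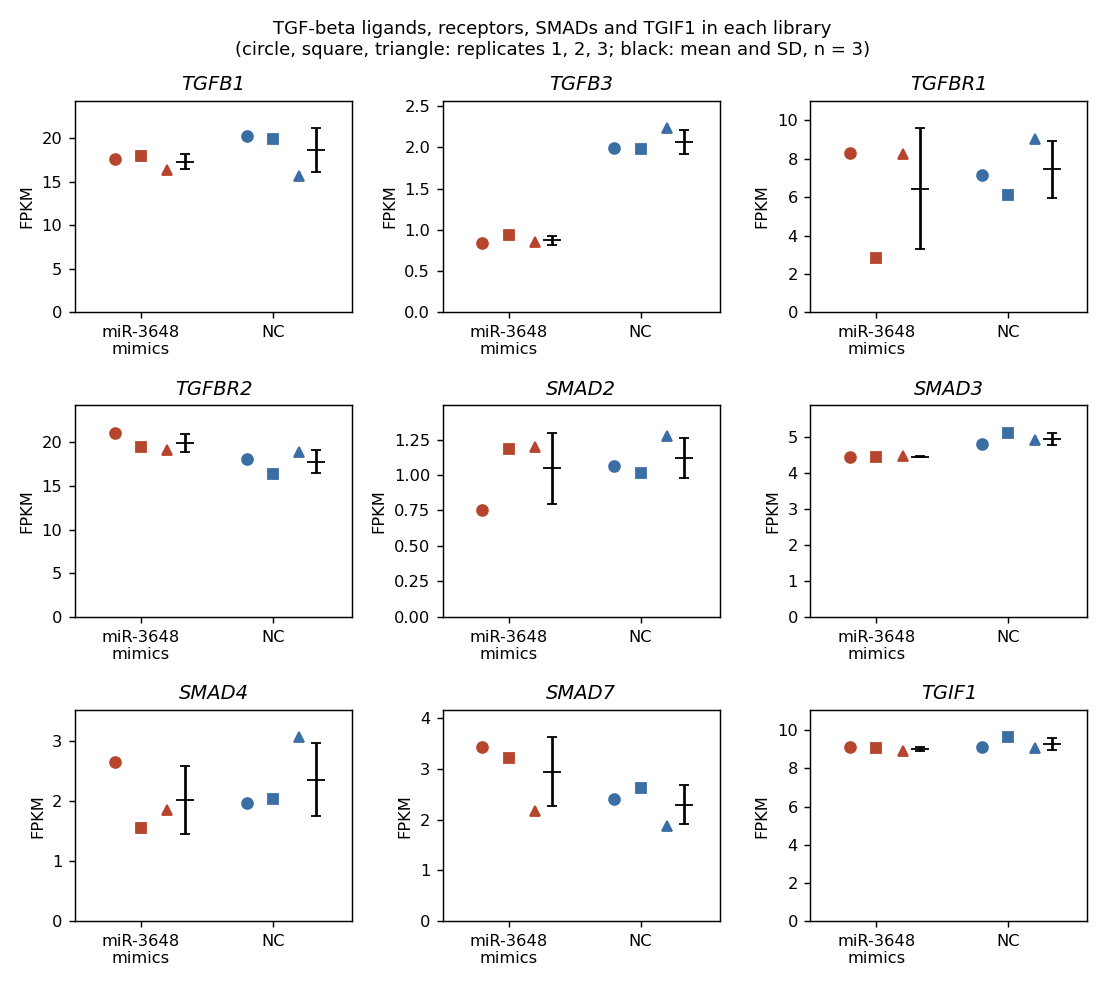
FPKM (vertical axes, each from 0) of the 9 listed members in the 3 mimic and 3 NC libraries, with replicates 1, 2 and 3 as circle, square and triangle and the mean ± SD in black. TGFB3 lay between 0.834 and 0.931 FPKM in mimic libraries and between 1.98 and 2.23 FPKM in NC libraries, and TGFBR1 stood at 2.82 FPKM in mimic replicate 2.

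The receptors gave no call. TGFBR2, the ligand-binding type II receptor (ENSG00000163513; chromosome 3, 30647994 to 30735634), was measured at 21.1, 19.5 and 19.2 FPKM in mimic libraries and at 18.1, 16.4 and 18.9 FPKM in NC libraries. Every mimic value was above every NC value, by a small margin. Its log2 fold change was 0.16 (95% interval -0.04 to 0.35, limma adjusted p = 0.41). Without NC replicate 3 it was 0.20 with an adjusted p of 0.11, which did not pass either.

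TGFBR1, the signalling type I receptor (ENSG00000106799; chromosome 9, 101866320 to 101916474), was measured at 8.28, 2.82 and 8.23 FPKM in mimic libraries and at 7.17, 6.13 and 9.05 FPKM in NC libraries. Mimic replicate 2 was far below the other 5 libraries, which overlapped between the groups. Its value was under 0.5 times the lowest of the others, as it was for 14 of 10286 tested genes (0.136%) in that library, and between 17 and 23 genes behaved so in each of the other 5. The log2 fold change was -0.28 with a wide 95% interval of -1.10 to 0.54 (limma adjusted p = 0.71), and it was 0.15 without mimic replicate 2. The ratio of TGFBR1 to TGFBR2 averaged 0.323 ± 0.155 in mimic and 0.417 ± 0.0552 in NC libraries (SD, n = 3 each), with an exact permutation p of 0.5 and 0.67 after adjustment over the 4 ratios.

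The receptor-activated SMADs were unequal in FPKM and gave no call. Their longest coding transcripts in GENCODE 29 have 34526 bases for SMAD2 and 6247 bases for SMAD3. The lengths used for FPKM are not stated, and the part of length in the unequal FPKM was not tested. SMAD3 (ENSG00000166949; chromosome 15, 67356101 to 67487533) was measured at 4.44, 4.46 and 4.47 FPKM in mimic libraries and at 4.80, 5.11 and 4.92 FPKM in NC libraries. All mimic values were lower, and they lay within a narrow band. This gave a log2 fold change of -0.12 (95% interval -0.30 to 0.05, limma adjusted p = 0.46).

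SMAD2 (ENSG00000175387; chromosome 18, 45335328 to 45457517), which shares the place of SMAD3 in the pathway, had the lowest mean of the members over all 6 libraries, though not in mimic libraries alone, where TGFB3 was lower. It was measured at 0.756, 1.18 and 1.20 FPKM in mimic libraries and at 1.07, 1.02 and 1.28 FPKM in NC libraries. The groups overlapped, with the lowest value in mimic replicate 1. The log2 fold change was -0.06 (95% interval -0.33 to 0.21, limma adjusted p = 0.82), and 0.05 without mimic replicate 1. The ratio of SMAD2 to SMAD3 averaged 0.235 ± 0.0556 in mimic and 0.227 ± 0.0306 in NC libraries (SD, n = 3 each; exact permutation p = 0.8, also 0.8 after adjustment over the 4 ratios).

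SMAD4, the partner shared by the TGF-beta and BMP branches (ENSG00000141646; chromosome 18, 48554764 to 48611415), was measured at 2.66, 1.55 and 1.86 FPKM in mimic libraries and at 1.98, 2.05 and 3.07 FPKM in NC libraries. The highest value was that of NC replicate 3 and the lowest that of mimic replicate 2, and the groups overlapped. This gave a log2 fold change of -0.16 (95% interval -0.57 to 0.26, limma adjusted p = 0.68), and -0.01 without NC replicate 3.

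SMAD7, the inhibitory SMAD, which TGF-beta itself induces (ENSG00000101665; chromosome 18, 46446223 to 46477081), was measured at 3.43, 3.22 and 2.17 FPKM in mimic libraries and at 2.40, 2.61 and 1.88 FPKM in NC libraries. Mimic replicates 1 and 2 were above all NC values, and mimic replicate 3 was among them. The log2 fold change was 0.25 (95% interval -0.11 to 0.61, limma adjusted p = 0.47). The ratio of SMAD7 to SMAD3 averaged 0.661 ± 0.153 in mimic and 0.464 ± 0.0718 in NC libraries (SD, n = 3 each), and the exact permutation p was 0.3, or 0.6 after adjustment over the 4 ratios.

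TGIF1, the homeodomain corepressor (ENSG00000177426; chromosome 18, 3411606 to 3459976), had the fold change closest to 0 with all 6 libraries and without GC correction. It was measured at 9.11, 9.06 and 8.91 FPKM in mimic libraries and at 9.13, 9.62 and 9.06 FPKM in NC libraries, and the groups overlapped. Its log2 fold change was -0.03 (95% interval -0.20 to 0.13, limma adjusted p = 0.83). With GC correction it was -0.13 (limma adjusted p = 0.53), and TGFB1, at 0.05, was then closest to 0. A processed pseudogene, TGIF1P1, is annotated in GENCODE 29 and could share reads with it.

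The order of the members' mean levels, taken over all 6 libraries, was TGFBR2 (18.8 FPKM), TGFB1 (18.0), TGIF1 (9.15), TGFBR1 (6.95), SMAD3 (4.70), SMAD7 (2.62), SMAD4 (2.19), TGFB3 (1.47) and SMAD2 (1.08 FPKM). The ranges over the 6 libraries did not overlap between TGFB1 and TGIF1 or between SMAD3 and SMAD7, and overlapped between all other neighbours in that order. TGFBR2 was above 79.7% of the tested genes and SMAD2 above 0.924% of them. Listed genes with a mean under 1 FPKM were not tested, so the place of SMAD2 depends on that filter. Within the groups the order differed at 3 pairs of neighbours. TGFBR2 averaged 19.9 FPKM and TGFB1 17.3 FPKM in mimic libraries, against 17.8 and 18.6 FPKM in NC libraries. SMAD7 averaged 2.94 FPKM and SMAD4 2.02 FPKM in mimic libraries, against 2.30 and 2.37 FPKM in NC libraries. TGFB3 was the lowest in mimic libraries, at 0.872 FPKM beside 1.05 FPKM for SMAD2, and SMAD2 the lowest in NC libraries, at 1.12 FPKM beside 2.06 FPKM for TGFB3.

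As a group the members showed 7 negative and 2 positive log2 fold changes, with a median of -0.09 beside -0.0046 over all tested genes, of which 51.0% were negative. Mimic and NC values did not overlap for 3 of the 9, TGFB3 and SMAD3 (lower) and TGFBR2 (higher), where 22.2% of all tested genes did not overlap. For the 8 members that were not called, every 95% interval included 0.

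**Figure D2:**
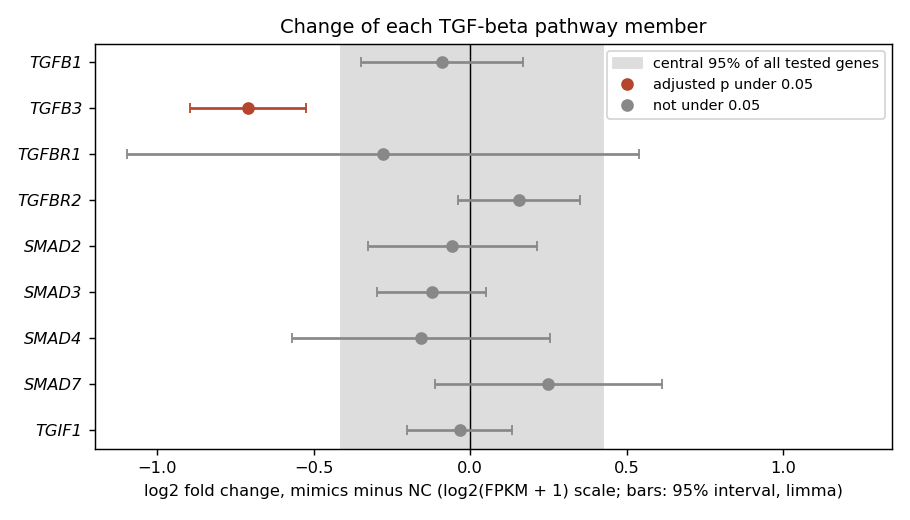
Log2 fold change, mimics minus NC, of each listed member on the log2(FPKM + 1) scale with its 95% interval from limma; the grey band spans the central 95% of all tested genes, -0.41 to 0.42. TGFB3, at -0.71, is the only member whose interval lies outside the band, and the interval of TGFBR1 is the widest.

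NC replicate 3 stood apart from the other NC libraries. Its Pearson correlation across tested genes was 0.971 with NC replicate 1 and 0.964 with NC replicate 2, against 0.982 between those 2, and 0.978 to 0.979 with the mimic libraries. In log2(FPKM + 1), NC replicate 3 differed from the mean of NC replicates 1 and 2 by -0.34 for TGFB1 and -0.28 for SMAD7, and by 0.43 for SMAD4, 0.40 for TGFBR1 and 0.12 for TGFB3. The longest transcripts of TGFB1 and SMAD7 are rich in GC, at 63.5% and 58.7%, those of SMAD4 and TGFBR1 poor, at 41.1% and 39.0%, and that of TGFB3 is at 53.2%, beside a median of 48.5% over tested genes. NC replicate 3 differed by -0.044 for TGIF1, 0.16 for SMAD2, 0.13 for TGFBR2 and -0.0083 for SMAD3. Their transcripts are at 41.3%, 40.2%, 47.4% and 50.4% GC, so TGIF1 was as poor in GC as SMAD4 without its shift. The part of GC content in these differences was not tested. Over 10213 genes, which are not independent replicates, Spearman's rho between transcript GC content and the fold change from all 6 libraries was -0.50. It was not computed without NC replicate 3, so it cannot be assigned to that library. Without NC replicate 3, 1527 genes were called, against 122 when GC correction was added. With GC correction the log2 fold change of TGFB3 was -0.65 (limma adjusted p = 0.031, where 0.999% of all genes were called), and with GC correction and without NC replicate 3 it was -0.57 (adjusted p = 0.036).

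The genes whose profile over the 6 libraries was most like that of TGFB3 were SERINC5, KPNA6, an importin alpha gene, and RRP1B. Likeness was the root mean square difference of log2(FPKM + 1) centred on each gene's mean, at 0.0801, 0.0863 and 0.0979 log2 units. A choice by profile sets the shared direction of change in advance. Adding 1 FPKM shrinks the change of TGFB3 more than those of genes at higher levels. The log2 fold change of TGFB3 was -0.71 on this scale and -1.15 with a pseudocount of 0.1. Likeness was examined on the log2(FPKM + 1) scale only. SERINC5 was measured at 15.4, 14.9 and 14.8 FPKM in mimic libraries and at 26.5, 23.6 and 24.2 FPKM in NC libraries. KPNA6 was at 12.5, 12.7 and 12.6 FPKM in mimic and at 18.7, 19.1 and 19.1 FPKM in NC libraries, a level above that of TGFB3. RRP1B was at 13.3, 13.1 and 13.1 FPKM in mimic and at 20.8, 20.2 and 19.4 FPKM in NC libraries.

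The rest of the pathway was described through 8 lists with 107 further genes, of which 80 were listed and 75 tested. In these, 3 genes rose and none fell (limma; 4% of the 75, against 0.408% of all tested genes), and these 3 were known from earlier results when the lists were drawn up. The calls were TAGLN, THBS1 and CTGF. The 75 had 40 positive and 35 negative log2 fold changes, with a median of 0.05. At an unadjusted p under 0.05, 1506 of all tested genes would pass.

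In the list of 17 tested genes that TGF-beta is known to induce, leaving out SMAD7 and TGIF1, 3 rose, none fell and 14 did not pass, with a median log2 fold change of 0.37 beside -0.0046 over all tested genes. The list was drawn up with earlier results of these data known, so its counts and median only describe it. TAGLN, the gene of transgelin, an actin-binding protein, was at 13.8, 15.9 and 17.3 FPKM in mimic libraries and at 2.01, 2.23 and 2.02 FPKM in NC libraries (log2 fold change 2.43, SE 0.10, limma adjusted p = 0.00028). With GC correction 7 of the 17 were called, all higher, where 0.999% of all tested genes were called. Without NC replicate 3, 9 were called as higher and 1, JUNB, as lower, where 14.8% of all tested genes were called, and TAGLN was the only 1 called without each of the other 5 libraries. The TAGLN groups lay far apart, and it kept its call in all 6 settings with 1 library left out.

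CTGF, a matricellular protein gene, was at 6.30, 6.14 and 6.38 FPKM in mimic libraries and at 4.0, 3.79 and 4.05 FPKM in NC libraries (log2 fold change 0.56, SE 0.07, limma adjusted p = 0.043). THBS1 encodes thrombospondin, an activator of latent TGF-beta, and stands in the lists of latency genes and of induced genes. It was at 4.81, 5.16 and 4.88 FPKM in mimic libraries and at 3.02, 2.80 and 2.68 FPKM in NC libraries (log2 fold change 0.63, SE 0.08, limma adjusted p = 0.036). TAGLN is also known as a target of serum response factor, and CTGF and THBS1 as targets of YAP, so none of the 3 is specific to TGF-beta. With 1 library left out at a time, the log2 fold change of CTGF lay between 0.53 and 0.57 and that of THBS1 between 0.61 and 0.67. Both passed only without NC replicate 3 (limma adjusted p = 0.022 for CTGF and 0.024 for THBS1), and the adjusted p lay between 0.10 and 0.25 without each of the other 5 libraries.

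The other induced genes did not pass, although mimic values lay above NC values without overlap in 10 of the 17, the called genes included, and below in 2, where 8.68% and 13.5% of all tested genes did so. As the list was drawn up with earlier results known, these counts only describe it. From these, CDKN2B, JUNB and COL1A1 were named after their values were seen. CDKN2B, a cyclin-dependent kinase inhibitor, was at 3.89, 4.13 and 4.29 FPKM in mimic and 2.50, 2.48 and 2.78 FPKM in NC libraries (limma adjusted p = 0.076). JUNB, an AP-1 subunit, was at 15.2, 14.9 and 12.7 FPKM in mimic and 21.0, 22.9 and 16.8 FPKM in NC libraries (adjusted p = 0.21), the opposite direction.

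**Figure D3:**
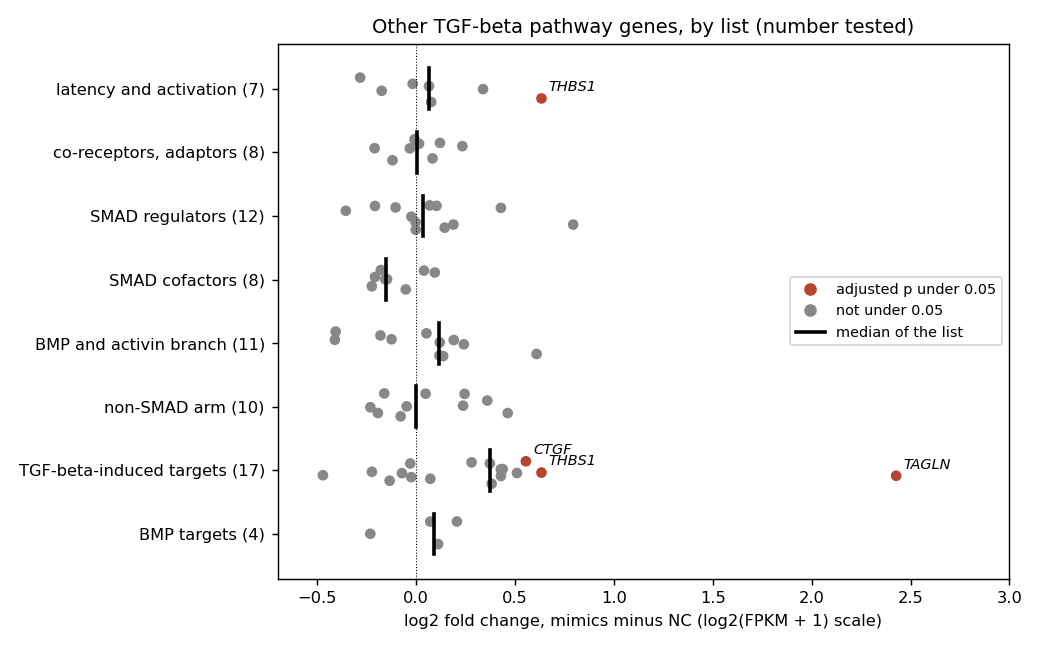
Log2 fold change, mimics minus NC, of each tested gene in the 8 further lists of the pathway, with the number tested in brackets, the median of each list as a black bar and called genes in red with their names. The list of TGF-beta-induced genes has a median of 0.37, and the called genes are TAGLN at 2.43, THBS1 at 0.63 (in 2 lists) and CTGF at 0.56.

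Beside THBS1, the other 6 tested genes of ligand latency and activation did not pass (median 0.07 with THBS1 included). Among 8 tested co-receptors and receptor adaptors none passed (median 0.0040). The adaptor gene TGFBRAP1 was at 7.97, 8.39 and 8.48 FPKM in mimic and 10.0, 9.52 and 9.63 FPKM in NC libraries (limma adjusted p = 0.28). The co-receptor gene TGFBR3, betaglycan, was at 11.1, 9.56 and 9.73 FPKM in mimic and 9.07, 7.84 and 8.46 FPKM in NC libraries (adjusted p = 0.31). DAB2, an endocytic adaptor gene, was at 15.5, 15.9 and 17.3 FPKM in mimic and 15.0, 15.4 and 14.1 FPKM in NC libraries (adjusted p = 0.49).

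None of 12 tested SMAD regulators passed (median 0.03). The paralogous corepressors SKI and SKIL pointed in opposite directions. SKI was at 4.77, 5.45 and 5.26 FPKM in mimic and 8.05, 6.35 and 6.32 FPKM in NC libraries (limma adjusted p = 0.24), and SKIL, which TGF-beta induces, at 8.89, 10.2 and 9.88 FPKM in mimic and 6.03, 6.22 and 8.74 FPKM in NC libraries (adjusted p = 0.26). The groups overlapped for neither. UCHL5, a deubiquitinase gene, was at 13.8, 15.0 and 15.4 FPKM in mimic and 11.5, 11.8 and 15.3 FPKM in NC libraries (adjusted p = 0.48).

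None of 8 tested SMAD cofactors passed (median -0.15). The acetyltransferase genes CREBBP and EP300 averaged 5.27 ± 0.253 and 4.58 ± 0.239 FPKM in mimic libraries and 6.25 ± 0.478 and 5.32 ± 0.378 FPKM in NC libraries (SD, n = 3), and the Mediator gene MED15 averaged 7.79 ± 0.0679 FPKM in mimic and 9.30 ± 1.09 FPKM in NC libraries. None of 10 tested genes of the non-SMAD arm passed (median 0.00079). There the adaptor gene SHC1 averaged 42.9 ± 0.804 FPKM in mimic and 49.2 ± 2.99 FPKM in NC libraries, the kinase gene MAP2K3 15.9 ± 0.724 and 18.9 ± 2.20 FPKM, and TAB1 7.96 ± 0.111 and 9.06 ± 1.22 FPKM.

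None of 11 tested genes of the BMP and activin branch passed (median 0.12). FSTL3, a secreted activin antagonist, was at 22.7, 23.9 and 18.6 FPKM in mimic and 14.9, 14.4 and 12.2 FPKM in NC libraries (limma adjusted p = 0.13). GDF15, a stress-induced ligand, was at 66.9, 61.1 and 58.9 FPKM in mimic and 88.2, 95.4 and 67.9 FPKM in NC libraries (adjusted p = 0.25). SMAD1, the BMP counterpart of SMAD2 and SMAD3, averaged 0.878 ± 0.0702 FPKM in mimic and 1.13 ± 0.0481 FPKM in NC libraries. Of the BMP-induced genes 4 were tested and none passed (median 0.09). HES1 averaged 34.0 ± 1.70 FPKM in mimic and 40.2 ± 4.22 FPKM in NC libraries, ID2 31.4 ± 3.19 and 27.0 ± 1.63 FPKM, and ID3 15.9 ± 0.948 and 14.7 ± 1.83 FPKM.

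Markers of other cells were few and low. Of 6 fibroblast markers only COL1A1 was listed, at 0.940 to 0.998 FPKM in mimic and 1.07 to 1.48 FPKM in NC libraries, while 1 of 5 endothelial and 3 of 5 leukocyte markers were listed, with summed levels of 1.87 to 2.84 and 5.69 to 6.10 FPKM in mimic and 1.95 to 2.96 and 6.98 to 8.05 FPKM in NC libraries. Most of the leukocyte sum was 1 gene, LYZ, named after its values were seen. It was at 3.69 to 4.14 FPKM in mimic and 5.01 to 5.50 FPKM in NC libraries (limma adjusted p = 0.18). The leukocyte gene PTPRC and the endothelial genes PECAM1 and CDH5 were not listed, and the part of the lower COL1A1 and LYZ levels of mimic libraries in the results above was not tested. All 6 gastric epithelial markers were listed, with summed levels of 890 to 904 FPKM in mimic and 771 to 951 FPKM in NC libraries, and none passed. The 3 of smallest p were the adhesion gene EPCAM, at 201.9 ± 4.90 FPKM in mimic and 181.6 ± 4.03 FPKM in NC libraries, and the keratin genes KRT18, at 235 ± 3.30 and 211 ± 26.1 FPKM, and KRT8, at 182 ± 1.98 and 163 ± 25.4 FPKM (SD, n = 3 each). The limma adjusted p was 0.28 for EPCAM, 0.43 for KRT18 and 0.49 for KRT8. CDH1, the E-cadherin gene, and CLDN4, a claudin gene, were named after their values were seen and were lower than these. CDH1 was at 2.48 to 4.20 FPKM in mimic and 3.15 to 3.75 FPKM in NC libraries, and CLDN4 at 0.948 to 4.92 FPKM in mimic and 0.841 to 8.55 FPKM in NC libraries.

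**Figure D4:**
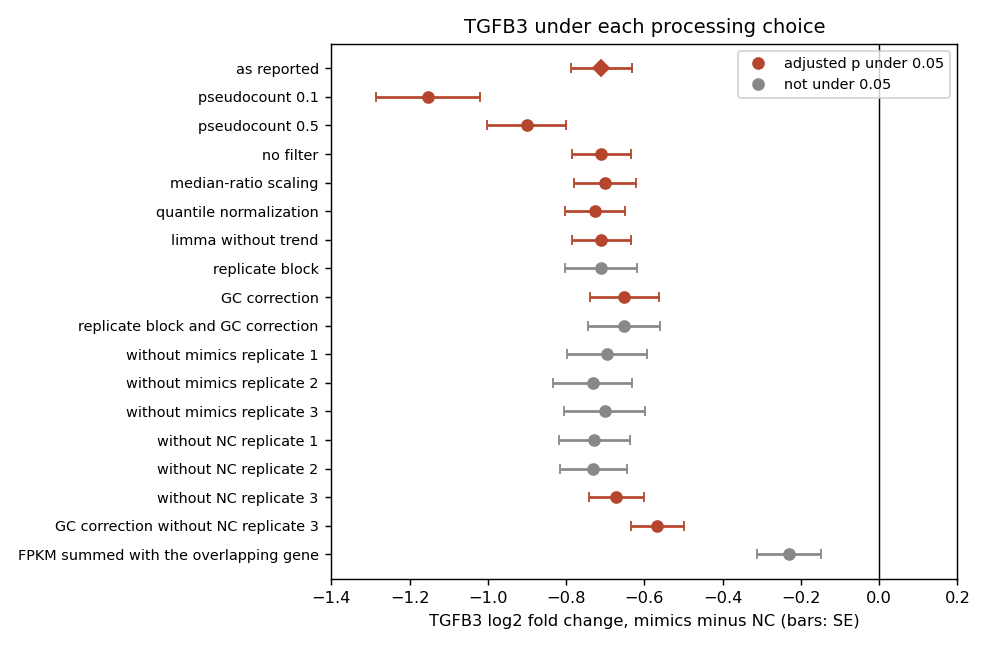
TGFB3 log2 fold change, mimics minus NC, with its SE under each processing choice; red points have a limma adjusted p under 0.05 and grey points do not, and the diamond is the value as reported. Every value is negative, from -1.15 with a pseudocount of 0.1 to -0.23 for the sum with IFT43.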

How the data were processed

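RNA sequencing libraries were made from total RNA with a stranded kit, per the labels' protocols. The authors deposited 1 table of FPKM; per the submitters' processing notes, StringTie 1.3.3, cutadapt and the build GRCh37 were used. For the aligner, annotation release, strand setting and rule for listing genes, nothing is stated in the sources used here. The table holds no counts, so depth is unknown. FPKM sums ran from 208274 to 222947 per library over listed genes.

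Values were transformed as log2(FPKM + 1). Genes with a mean of at least 1 FPKM (10286) were tested with limma 3.58.1 in R 4.3.3, two-sided, with an intensity trend, and p-values were Benjamini-Hochberg adjusted over all of them (threshold 0.05). The fit was tested on simulated data. Ratios used exact permutation tests (SciPy 1.17.1) over 20 assignments. GC content was that of the longest coding transcript in GENCODE 29. The naming rule took all members, called genes of each pathway list or else up to 3 of smallest p, and genes overlapping a member; other genes named after their values were seen are marked so, and of marker genes only a few are named. Alternatives covered pseudocount, filter, scaling, trend, replicate block, GC correction and single libraries. Members and lists were chosen with earlier results of these data known.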

Additional observations from a re-analysis of the deposited data

How the results depend on the processing

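Of 149 values of members under the alternatives, 136 kept their direction and their side of the threshold, 8 lost the call of TGFB3 and 5 changed sign without a call. The replicate block, which takes the replicate number as a covariate, left 11 genes called in all, 0 members and 1 further pathway gene, with a limma adjusted p of 0.12 for TGFB3 at an unchanged log2 fold change of -0.71. With the block and GC correction together there were 12, 0 and 1, and TGFB3 was at -0.65 (adjusted p = 0.13) and TGFB1 at 0.052. The replicate numbers do not mark a pairing in the labels, and the deviations of same-numbered libraries correlated at 0.039, -0.042 and 0.068. GC correction gave 102 calls, 8 of them further pathway genes, and turned TGFB1 to 0.052. Added after the data were seen, GC correction without NC replicate 3 gave 122 calls, 1 member and 6 further pathway genes, with TGFB1 at 0.019. With a filter of at least 5 FPKM 0 members were called, since TGFB3 was not tested there. Leaving out 1 library at a time gave 8 to 1527 calls, 0 to 1 members and 1 to 22 further pathway genes; the highest counts were without NC replicate 3, where 15 pathway genes were higher and 7 lower. With 1 library left out the log2 fold change of TGFBR1 lay between -0.49 and 0.15 (0.15 without mimic replicate 2) and that of SMAD2 between -0.11 and 0.049 (0.049 without mimic replicate 1). The cause of these shifts was not tested. With unknown depth no counting error can be given for genes as low as TGFB3 and SMAD2.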

Other observations

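The pathway genes TGIF2, MAPK14 and BMP4, named here after their values were seen, differed between libraries of the same group and gave no call. TGIF2, the paralog of TGIF1, was at 12.1, 6.86 and 7.35 FPKM in mimic libraries and at 0.993, 13.9 and 4.58 FPKM in NC libraries (limma log2 fold change 0.79, adjusted p = 0.59). MAPK14, the p38 kinase gene of the non-SMAD arm, was at 12.8, 4.10 and 11.9 FPKM in mimic libraries and at 4.57, 3.86 and 11.8 FPKM in NC libraries (log2 fold change 0.46, adjusted p = 0.66). The values of MAPK14 fell into a high and a low level that crossed the groups, and mimic replicate 2 was at the low level, as it was for TGFBR1. BMP4, a BMP ligand gene, was likewise lowest in mimic replicate 2, at 3.98, 2.63 and 5.83 FPKM in mimic libraries and at 5.31, 5.21 and 6.32 FPKM in NC libraries (adjusted p = 0.42).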
